A study of Drosophila melanogaster with 3 samples.

Results

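Between 1 and 10 kb from the nearest protein-coding transcription start, and outside every protein-coding gene body, 1022 binding summits of the nuclear receptor Eip75B were found among the 7803 of the study's final peak list (13.1%, 95% exact interval 12.4% to 13.9%). A summit is the base of highest signal within a called region. Within that list, the 1022 summits were chosen by position alone, on the Release 6 (dm6) genome and its gene models. The list itself holds the 7803 highest-signal regions of the pooled replicates, so signal did decide which summits could enter. The 1022 are called intergenic summits here. Of the other summits, 2329 lay at the same distances inside a protein-coding gene (intragenic summits), 3311 lay within 1 kb of a start, and 1141 had no start within 10 kb.

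The data come from ChIP-seq on whole Drosophila melanogaster of strain Eip75B-MiMIC-GFP, in which an eGFP exon inside an intron of Eip75B makes the endogenous gene produce a tagged protein. Prepupae of unstated age, males and females together, were used, and an antibody against GFP precipitated chromatin that had been sonicated to between 200 and 800 bp. According to the labels, 3 biological replicates form the only group, so summits were compared between replicates and between kinds of sequence. All tissues of the animal contribute to each region, so fewer cells with binding and weaker binding per cell cannot be told apart, and whether the tag alters the protein's binding was not tested.

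Eip75B (E75) is induced by ecdysone, the steroid hormone that drives moulting and metamorphosis, and carries heme in its ligand pocket, as do the related Rev-erb receptors of mammals. It acts mostly as a repressor and competes with the activator Hr3 for the same DNA element, an AGGTCA-type core preceded by an A/T-rich stretch. In the prepupa, the short stage between larva and pupa, ecdysone-induced factors switch gene programmes in sequence. Regulatory DNA in flies often lies a few kilobases from the start it acts on, and an intergenic summit can therefore belong to a gene other than the nearest. The nearest gene is given below as an address only.

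The 6 strongest intergenic summits are shown first, because the base composition around the summit is described next. They were taken by signal alone. In the eEF1gamma window, G + C was 40.6%, against 38.6% in its left flank, so this one is not A/T-rich relative to that side. Each line gives the summit base with 50 bp on either side, on the plus strand of dm6, with runs of at least 8 A or T bases in capitals.

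CG4004, chrX:12751311-12751411: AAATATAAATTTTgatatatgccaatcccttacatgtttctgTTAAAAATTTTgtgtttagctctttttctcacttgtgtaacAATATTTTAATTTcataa

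CG31668, chr2L:2202346-2202446: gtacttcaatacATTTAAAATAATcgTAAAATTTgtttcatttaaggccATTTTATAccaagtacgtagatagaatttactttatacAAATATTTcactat

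eEF1gamma, chr3R:29214396-29214496: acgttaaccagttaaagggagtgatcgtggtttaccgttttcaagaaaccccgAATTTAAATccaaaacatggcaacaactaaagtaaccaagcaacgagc

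CG4004, chrX:12752319-12752419: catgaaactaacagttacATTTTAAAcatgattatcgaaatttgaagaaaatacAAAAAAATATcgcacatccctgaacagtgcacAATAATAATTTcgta

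CG43245, chr3L:10776526-10776626: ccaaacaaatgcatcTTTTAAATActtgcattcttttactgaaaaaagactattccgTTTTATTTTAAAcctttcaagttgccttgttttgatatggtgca

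COX7AL2, chr2L:2199299-2199399: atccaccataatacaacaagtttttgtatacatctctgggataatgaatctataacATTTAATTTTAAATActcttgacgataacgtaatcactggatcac

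For contrast, the window 300 bp to the left of the CG31668 summit is given with the same capitals. It is much richer in G and C than the summit, a contrast that not every summit showed.

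CG31668 left flank, chr2L:2202046-2202146: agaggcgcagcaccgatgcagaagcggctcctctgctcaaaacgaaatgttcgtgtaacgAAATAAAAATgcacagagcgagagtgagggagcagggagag

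Intergenic summits sat in dips of G + C content. Within 50 bp of the summit the mean G + C was 33.2%, against 46.3% in the window 300 bp to the left and 46.4% in that to the right, while all intergenic sequence 1 to 10 kb from a start held 40.9%. The flanks were thus above the average of this kind of sequence and the summits below it. The summit-minus-flank difference was -13.1 percentage points in the final list, and -12.5 ± 0.809 in the replicates (SD, n = 3), with the same sign in 3 of 3. Each replicate was represented by its top list, its 7803 highest-signal regions. An exact sign-flip permutation test over the replicates, two-sided, gave p = 0.25 (adjusted p = 0.286 over 8 differences tested), which is the smallest p that 3 replicates allow, so no such comparison here can reach 0.05. This comparison of base composition was added after the data had been seen.

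The dip was deeper at intergenic than at intragenic summits. At intragenic summits, G + C was 34.0% in the centre and 44.4% in the left flank. The summit-minus-flank difference at intergenic summits minus that at intragenic summits was -2.60 points in the final list, and -2.59 ± 0.0487 (SD, n = 3; exact sign-flip p = 0.25, adjusted p = 0.286). Of the 1022 intergenic summits, 768 (75.1%) had a lower G + C than both flanks, against 1613 of the intragenic summits (69.3%) 888 of the summits beyond 10 kb (77.8%) and 1709 of the summits within 1 kb of a start (51.6%). Beyond 10 kb the mean G + C was 32.7% at the summit and 46.5% in the left flank, so the dip there was no shallower than at intergenic summits. Over all 30000 pooled regions, background included, the intergenic difference was smaller, at -7.18 points.

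**Figure D1:**
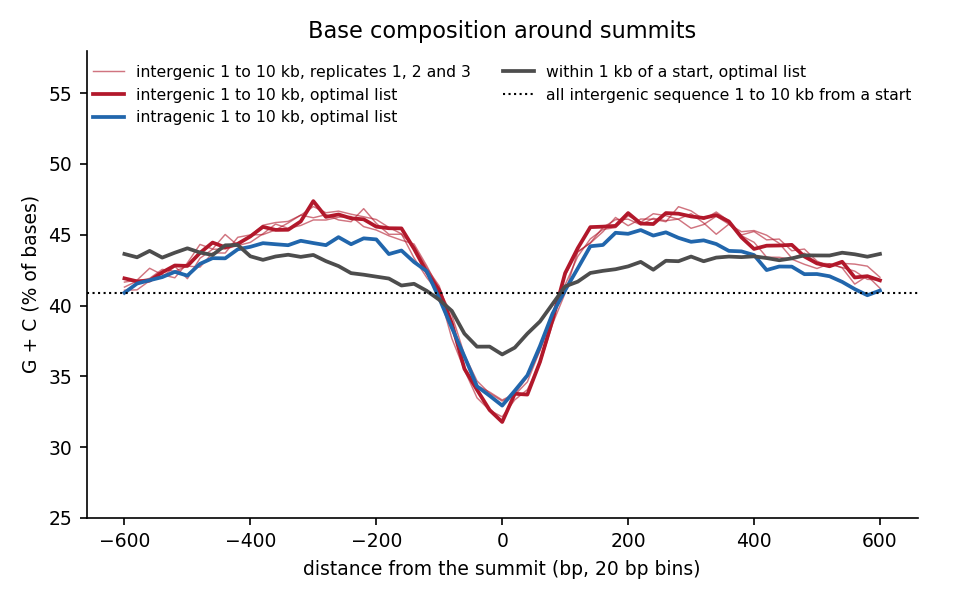
Mean G + C content (% of bases, 20 bp bins) against distance from the summit in bp, for intergenic summits (red; thin lines are the 3 replicates), intragenic summits (blue) and summits within 1 kb of a start (grey), with all eligible intergenic sequence as a dotted line. The red curve is lowest at the summit (31.8%), crosses the dotted line about 100 bp away, and lies above it at 300 bp on both sides (47.4% left, 46.3% right).

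Which A/T base was in excess depended on the side. In the 100 bp left of intergenic summits on the plus strand, A made up 34.0% of bases and T 30.6%. In the 100 bp to the right, A made up 30.1% and T 33.9%. All 3 replicates showed this mirror image, with A between 33.5% and 34.3% on the left and between 30.1% and 30.5% on the right. G and C differed less between the sides, at 18.0% and 17.4% on the left and 17.7% and 18.3% on the right. Repeat-masked sequence was about as frequent at the summits (224, or 21.9%) as in the eligible sequence (20.8%).

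The full element shared by E75 and Hr3 was rare at intergenic summits. It was found on either strand within 50 bp of 4 of 1022 summits (0.391%, 95% exact interval 0.107% to 0.999%), against 1 flanking window (0.0978%). By replicate top list the mean share was 0.571% ± 0.222 at the summit and 0.167% ± 0.0561 in the flank (SD, n = 3), higher at the summit in 3 of 3 (exact sign-flip p = 0.25, adjusted p = 0.286). Among intragenic summits, 16 held it (0.687%). The difference between intergenic and intragenic summits was -0.30 points in the final list and -0.0203 ± 0.169 in the replicates, with both signs among them (exact sign-flip p = 1, adjusted p = 1). Within 1 kb of a start, 15 summits held it (0.453%), and beyond 10 kb 10 did (0.876%). All 4 intergenic windows are shown, with the element in capitals on the plus strand. They had signals from 117 to 358, and none was among the 25 strongest.

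CG13631, chr3R:24768060-24768160: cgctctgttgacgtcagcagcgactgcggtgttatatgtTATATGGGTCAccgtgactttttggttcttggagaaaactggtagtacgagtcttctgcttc

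Glut4EF, chr3R:9872418-9872518: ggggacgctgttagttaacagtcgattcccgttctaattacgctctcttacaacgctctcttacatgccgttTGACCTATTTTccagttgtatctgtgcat

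Ldh, chr3L:6264052-6264152: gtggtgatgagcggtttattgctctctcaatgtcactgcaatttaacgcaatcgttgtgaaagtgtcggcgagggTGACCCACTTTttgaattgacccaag

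CG42541, chrX:3931824-3931924: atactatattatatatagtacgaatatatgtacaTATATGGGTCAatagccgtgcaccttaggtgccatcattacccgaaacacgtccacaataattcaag

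All 4 lay upstream of the nearest start. The Ldh summit was 1408 bp from the start of Ldh, which encodes lactate dehydrogenase, with a signal of 249 and ranks of 3760, 1240 and 2158 in replicates 1 to 3. The Glut4EF summit was 2213 bp from its start and ranked 5458, 1205 and 1827, the one near CG13631 ranked 1530, 1286 and 917, and the one near CG42541 ranked 4259, 11720 and 6295. The summit near CG13631 was the one whose rank varied least.

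The core motifs alone occurred in similar numbers at the summit and beside it. AGGTCA occurred at 18 intergenic summits (1.76%) and in 17 flanks (1.66%), with 1.60% ± 0.119 and 1.44% ± 0.192 by replicate (SD, n = 3), higher at the summit in 2 of 3. GGGTCA occurred at 19 summits (1.86%) and in 21 flanks (2.05%). Among intragenic summits, AGGTCA occurred at 76 (3.26%) and GGGTCA at 52 (2.23%). These motifs are part of the full element, so a match to it is counted here too.

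Of the 18 motifs searched, on both strands, the one with the largest difference in number was TATAAA. It was found at 214 intergenic summits (20.9%) and in 85 flanks (8.32%), and at 491 intragenic summits (21.1%). Repeats of GAGAGAG, the sequence bound by GAGA factor, went the other way, with 6 summits (0.587%) against 23 flanks (2.25%), as did CACACACA, with 15 (1.47%) against 39 (3.82%). TGCATAC, the core of the Su(Hw) insulator protein's site, was at 21 summits (2.05%) and 11 flanks (1.08%). TATCGATA, the DRE of many housekeeping promoters, was at 3 intergenic summits (0.294%) against 61 (1.84%) within 1 kb of a start. These shares moved with the base composition described above, whose part in them was not tested. A match is a string of letters and not a demonstration of binding.

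The strongest intergenic summit lay between CG4004 and the purine synthesis gene Paics, at 12751361 on X, with a signal of 2131. Signal is the authors' peak-caller value per region and is used only to rank regions within a list, where the highest of all 7803 was 3259. This summit ranked 10, 13 and 15 among the 30000 regions of replicates 1, 2 and 3. It lay inside the long non-coding RNA gene lncRNA:Vinr (12749894 to 12752350) and 5044 bp from the start of CG4004. A summit in a gap on another chromosome was almost as high. Near CG31668, at 2202396 on 2L, the summit had a signal of 1950 and ranked 13, 16 and 22.

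The third lay 5726 bp upstream of eEF1gamma, which encodes a subunit of a translation elongation factor, at 29214446 on 3R, with a signal of 1897 and ranks of 22, 17 and 18. It was 116 bp from the start of lncRNA:CR31044 and 1139 bp from the hairpin of mir-279, a microRNA known for its role in olfactory neuron development. The first 3 summits were thus near the top in every replicate. A further summit beside CG4004 (12752369, signal 1820) ranked 21, 18 and 26, and that near CG43245 (10776576 on 3L, signal 1673) ranked 31, 37 and 24.

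After these 5, signal fell away. Next came COX7AL2, named as a cytochrome c oxidase subunit 7A-like gene, at 1178. CG9300 followed at 1111 and the cytoplasmic actin gene Act5C at 1043. The rest of the 25 strongest lay between 677 and 934. They were nearest to Gr93d, a gustatory receptor gene, Paics, the Notch pathway gene E(spl)malpha-BFM, Achl, heca, CG3149, the F-box gene Fbxl7, tara at 2 places, Gbs-70E, whose product binds glycogen, hid, CG13898, the sensory ion channel gene ppk, the odorant-binding protein gene Obp56h, CG43131, CG7320 and glec. Each of the 25 was in every replicate's top list, and the lowest rank that any of them took was 529. They were chosen by the signal of the pooled replicates, which favours this. In the highest signal quartile, 97.4% of intergenic summits were in all 3 top lists, against 65.2% of all 7803 summits. Of the 25, 18 lay upstream of the nearest start, against 67.1% of all 1022, and 4 lay in a non-coding gene, against 12.5%. A lower G + C than both flanks was found at 22, against 75.1% of all 1022.

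**Figure D2:**
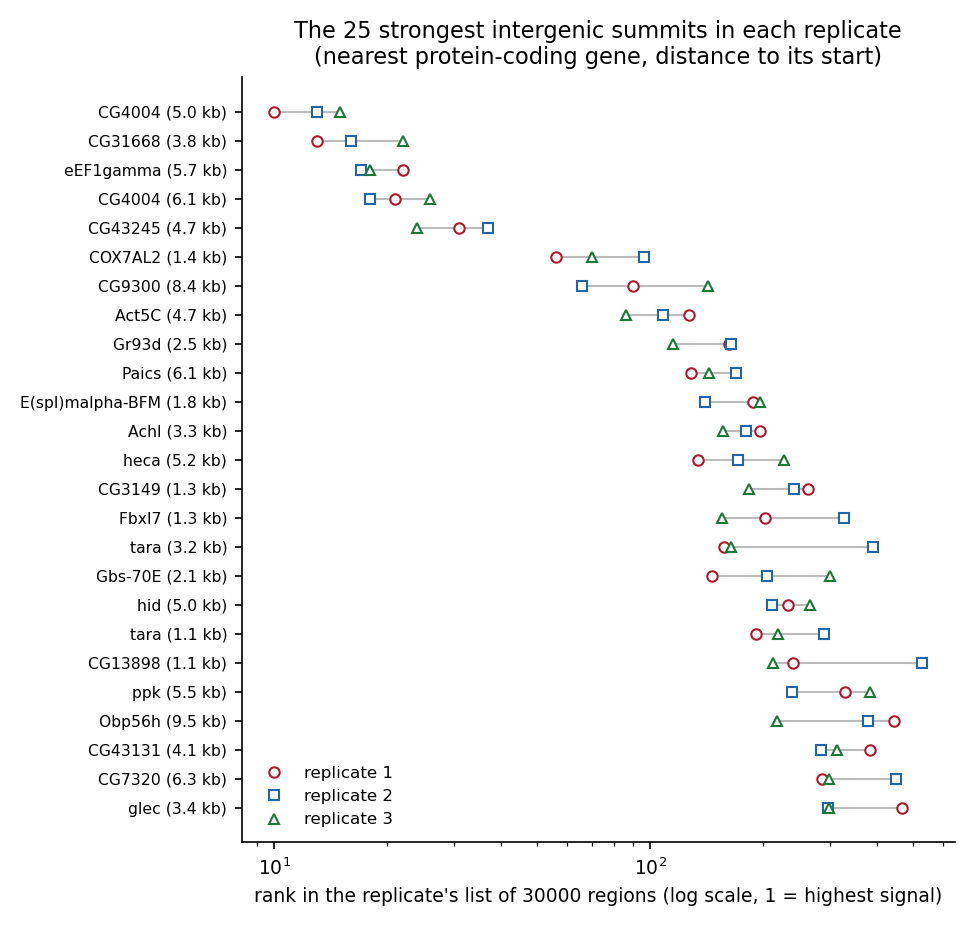
Rank of each of the 25 strongest intergenic summits in the whole list of replicate 1 (circle), 2 (square) and 3 (triangle), on a log axis where 1 is the highest signal of 30000 regions. Rows run from the strongest summit of the final list at the top (ranks 10, 13 and 15) downwards, each named by the nearest protein-coding gene with the distance to its start, and the point farthest right is rank 529.

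Intergenic summits were recovered in the replicates about as often as others. Of the 1022, 689 (67.4%, 95% exact interval 64.4% to 70.3%) lay in all 3 of the replicates' top lists, against 65.2% of all 7803 summits, 65.3% of intragenic ones, 64.2% of those within 1 kb of a start and 66.0% of those beyond 10 kb. A further 224 lay in 2 top lists, 95 in 1 and 14 in none. With the whole lists of 30000 regions, 997 (97.6%) were in all 3. Recovery followed signal: from the lowest to the highest signal quartile, 9.65%, 68.3%, 96.3% and 97.4% of the intergenic summits were in all 3 top lists, and summits in the lowest quartile lay nearest to the end of those lists.

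The share of each replicate's own intergenic summits found in both other top lists was 69.8% ± 2.73, against 66.7% ± 2.58 for intragenic ones (SD, n = 3). That difference was 3.06 ± 2.99 percentage points, positive in 3 of 3 (exact sign-flip p = 0.25, adjusted p = 0.286), and was thus no larger than about 1 SD of the replicates. It turned negative in the upper 50% of the list by signal (-3.16), with all pooled regions (-2.52) and without replicate 1 (-0.28). The median signal was 162 at intergenic, against 165 at intragenic summits. The median percentile of signal differed by -1.14 points in the final list and by -1.71 ± 0.750 in the replicates (SD, n = 3; exact sign-flip p = 0.25, adjusted p = 0.286).

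Eligible sequence, meaning intergenic sequence 1 to 10 kb from a start, made up 19.6 Mb (14.6% of the 6 arms). It held 52.2 summits per Mb (95% exact Poisson interval 49.0 to 55.5), against 49.3 per Mb (47.3 to 51.4) in intragenic sequence at the same distances, 122 within 1 kb of a start and 28.6 beyond 10 kb. By replicate the intergenic density was 53.0, 49.8 and 49.98, against 48.0, 45.8 and 49.2 in intragenic sequence. The intergenic value was the higher in each replicate, and the lowest intergenic value lay just above the highest intragenic one. The log2 ratio was 0.08 in the final list and 0.10 ± 0.07 in the replicates (SD, n = 3; exact sign-flip p = 0.25, adjusted p = 0.286). It changed sign when the inner bound was set to 2 kb (-0.01) and when non-coding genes were counted as genes too (-0.06).

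**Figure D3:**
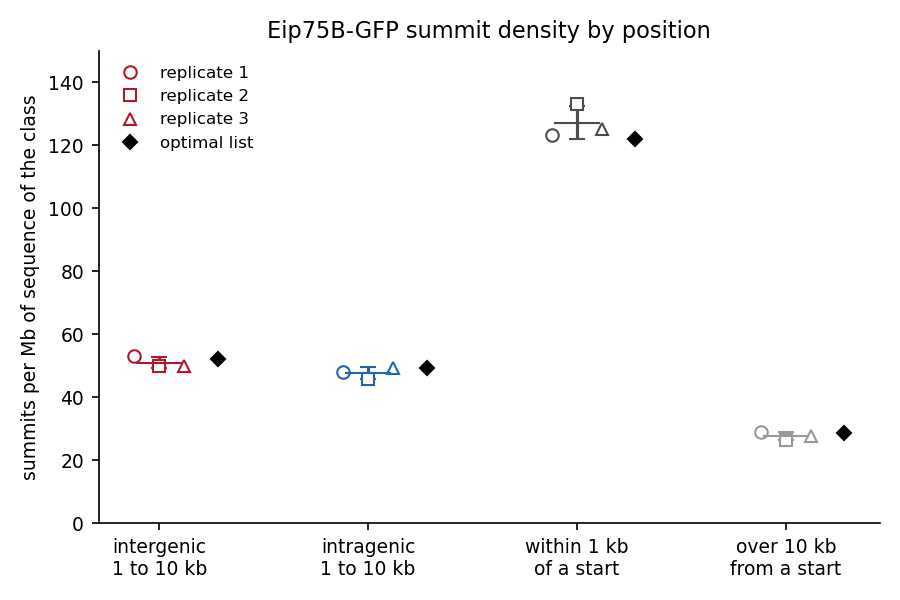
Summits per Mb of each kind of sequence, by position relative to protein-coding starts and genes, in the replicates' top lists (open symbols; bar, mean ± SD, n = 3) and in the final list (filled diamond). Intergenic and intragenic sequence 1 to 10 kb from a start lie close together (50.9 ± 1.81 and 47.7 ± 1.77), between the sequence within 1 kb of a start and that beyond 10 kb.

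The classes differed most in the first kilobase of the range. Between 1 and 2 kb from a start, intergenic sequence held 66.6 summits per Mb (249 summits), against 49.8 in intragenic sequence, and the replicates gave 65.6 ± 0.557 and 48.7 ± 2.04 (SD, n = 3). The intergenic replicates lay between 64.97 and 66.04, all above the intragenic ones, which lay between 46.4 and 50.4. From 2 kb outwards, the intergenic density per 1 kb bin lay between 41.6 and 53.4 with no steady trend.

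**Figure D4:**
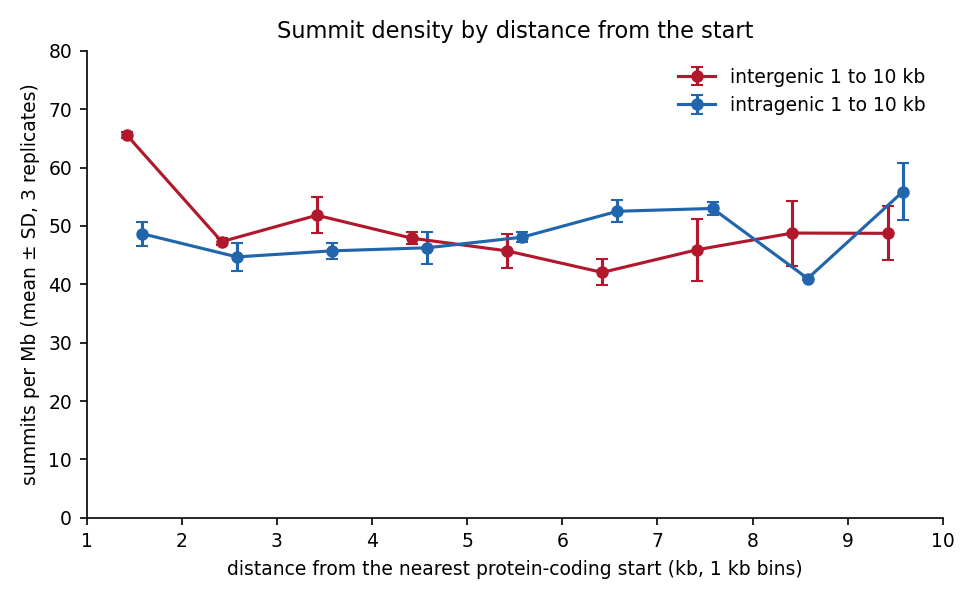
Summits per Mb (mean ± SD of 3 replicates) in 1 kb bins of distance from the nearest protein-coding start in kb, for intergenic (red) and intragenic (blue) sequence. The curves are apart in the first bin (65.6 against 48.7) and cross repeatedly beyond it.

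The summits nearest to the bounds of the range were as follows. The last summits within 1 kb lay 1000 bp from heca (signal 214), 981 bp from CG43450 (139) and 979 bp from CG4597 (104), and were not counted. The first beyond it lay 1013 bp from CG13047 (240), 1015 bp from bab2 (147) and 1018 bp from CG42693 (160). At the outer bound, those at 9999 bp from Ir67c (93.6), 9991 bp from CG1789 (177) and 9896 bp from rux (105) were kept. Those at 10004 bp from scyl (145), 10006 bp from CG42693 (504) and 10006 bp from CG4218 (98.2) were not.

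Upstream sequence held more summits than downstream sequence. Of the 1022, 686 (67.1%, 95% exact interval 64.1% to 70.0%) lay upstream of the nearest start, while 62.3% of the eligible sequence did. The difference was 4.84 points in the final list and 4.45 ± 0.653 in the replicates (SD, n = 3), positive in 3 of 3 (exact sign-flip p = 0.25, adjusted p = 0.286). In density, upstream sequence held 56.2 summits per Mb (52.1 to 60.6), against 45.5 (40.7 to 50.6) downstream. Upstream summits also lay nearer to the start, at a median of 3423 bp against 4439.5 bp. With an inner bound of 2 kb the difference was 3.645 points, and 2.77 ± 0.770 in the replicates (SD, n = 3). The part of distance was not tested. By the orientation of the flanking genes, gaps between divergent genes held 61.1 summits per Mb, tandem gaps 49.8 and convergent gaps 47.0. The replicates gave 58.9 ± 0.959, 48.5 ± 2.66 and 47.4 ± 1.66 (SD, n = 3 each), so divergent gaps stood above both others, while tandem and convergent gaps overlapped. A divergent gap is upstream of both flanking genes and a convergent gap downstream of both, so orientation largely restates the side.

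The arms differed more than the replicates did. Arm 3L had 302 intergenic summits, or 72.7 per Mb (69.6 ± 4.82 in the replicates, SD, n = 3), while 2L, 2R and 3R had 47.1, 49.8 and 49.3. X was lowest of the large arms, with 117 summits, or 38.9 per Mb (37.0 ± 2.72). Intragenic sequence of the same distances did not show this order. There 3L had 52.1 per Mb (51.1 ± 1.91) and X had 54.2 (52.5 ± 2.13), and these values overlap over replicates. On X, every replicate was thus lower in intergenic sequence (34.6 to 39.9) than in intragenic sequence (50.6 to 54.8). Chromosome 4 had 4 intergenic summits. Without X, the log2 ratio of intergenic to intragenic density was 0.18 in place of 0.08.

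Arm 3L also carries the tagged gene, Eip75B (17950953 to 18064696, minus strand). The 200 kb on either side of it held 19 intergenic summits, or 158 per Mb (136 ± 17.3 in the replicates, SD, n = 3), and the rest of 3L held 70.1 (67.7 ± 4.63). The rest of the arm was therefore still above the other arms. A cluster of 8 lay between CG44004 and CG34253, from 10518 to 17338 bp beyond the 5' end of Eip75B. The strongest of them, at 18078154, had a signal of 247 and was the only one in all 3 top lists. The others had signals from 93.5 to 136. The distance of 200 kb was chosen after the data had been seen.

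Summits were gathered in a small share of the gaps between protein-coding genes. Of 4256 gaps with eligible sequence, 525 (12.3%) held an intergenic summit, and 122 gaps with at least 3 held 530 of the 1022 (51.9%). Gaps with a summit had a median length of 11085 bp, against 2466 bp for those without, so length moves with this count and its part was not tested. A region of the lists can hold several summits, each with its own line. After overlapping regions were merged, 974 of the 1022 remained, and the median distance from an intergenic summit to the nearest other summit was 1855 bp.

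The gap with the most summits lay on 3R between mtSSB, a mitochondrial DNA-binding protein gene, and tara, a transcriptional coregulator gene (16205251 to 16225650). It held 11 summits in the final list and 13, 12 and 10 in replicates 1 to 3. The strongest was 3153 bp upstream of tara, with a signal of 825 and ranks of 157, 391 and 164. That at 1121 bp had a signal of 763 and ranked 191, 290 and 218. The 9 others had signals from 99.6 to 208, so the strong pair lay at the tara end.

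The gap between CG18404 and heca on 3R (30254098 to 30277931) held 10 summits, and 11, 10 and 11 in the replicates. heca, or headcase, is known for its role in imaginal and tracheal cells. Here 7 of the 10 had signals above 400, led by one of 882, 5250 bp upstream of heca, with ranks of 134, 171 and 227. Strong summits thus lay toward both ends of this gap, unlike the one at tara. None above 400 lay between 7.9 and 18.6 kb from its left end, a stretch partly over 10 kb from any start and so outside the class.

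On 3L, the gap between hng3 and CG13898 (755490 to 803426) held 9 summits, the strongest with a signal of 697 at 1133 bp from CG13898. That between the death activator gene hid and CG7320 (18185642 to 18201493) held 7. The strongest lay 5037 bp upstream of hid, with a signal of 787 and ranks of 233, 211 and 266, and another of 677 lay nearer to CG7320. Between Pex7 and hry, the hairy segmentation gene, there were also 7, up to a signal of 510, and between ovo and CG12680 on X there were 7, up to 481. All 7 of the ovo gap lay in lncRNA:CR44833, as any summit there must, since that gene (4956646 to 5063868) covers the whole gap.

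The densest of the gaps with at least 7 summits was the short one on 2L between chm, a histone acetyltransferase gene, and muc, which encodes a subunit of pyruvate dehydrogenase (7422737 to 7426865). Its 3129 bp of eligible sequence held 7 summits, or 22.4 per 10 kb, and 6, 5 and 7 in the replicates. Not all 7 need be separate sites, since those at 7423488 and 7423689 shared rank 1887 in replicate 3. The other gaps with 7 or more had 3.89 to 6.98 per 10 kb. Signals in the chm to muc gap were moderate, from 95.2 to 300. In all 3 top lists there were 5 of the 7, against 67.4% of the 1022 intergenic summits. The hairpin of mir-275 and the gene lncRNA:CR43857 lie in this gap.

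**Figure D5:**
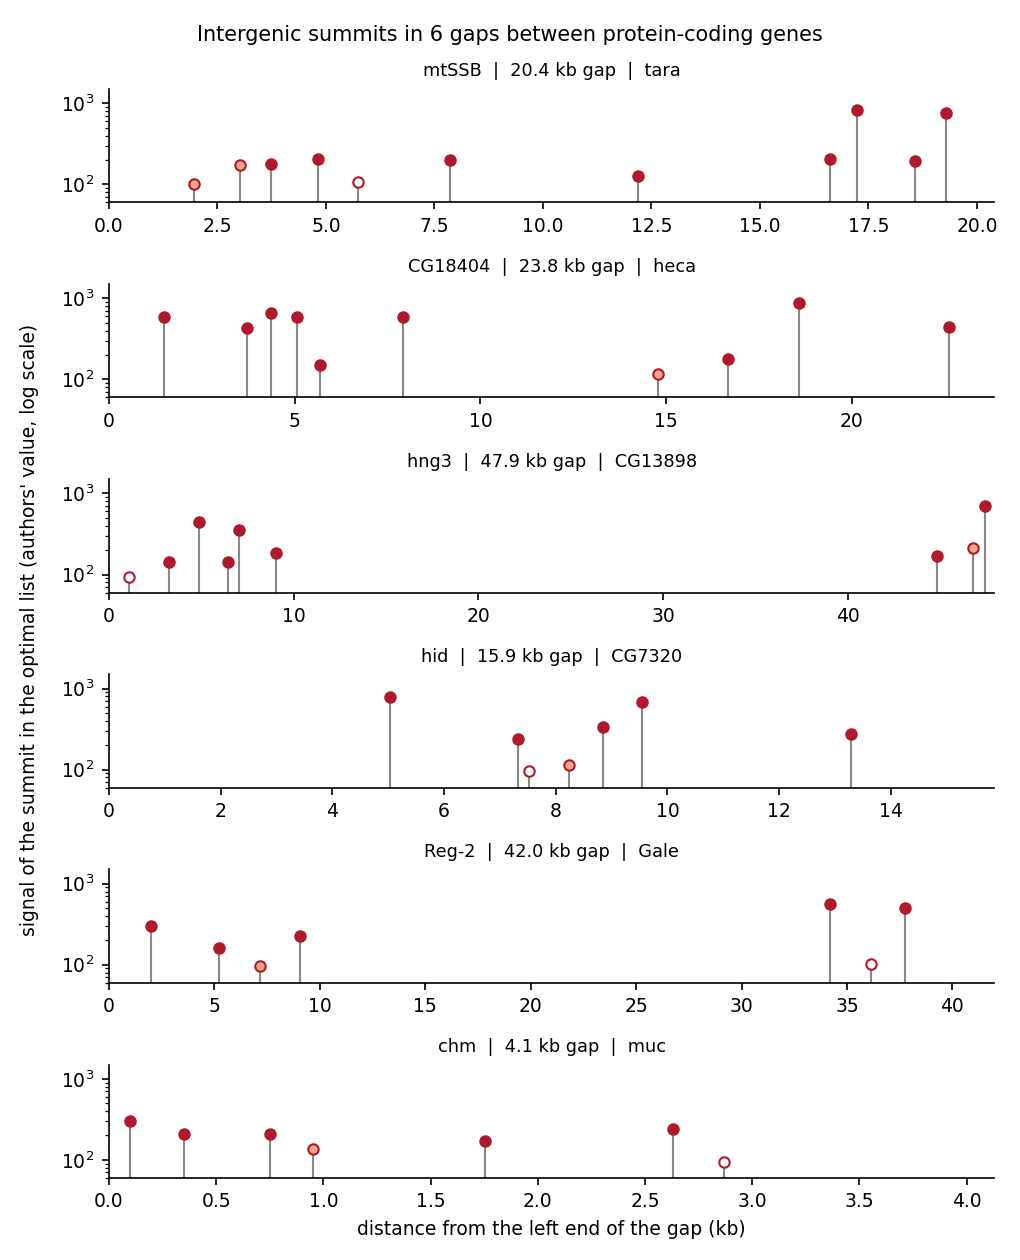
Intergenic summits in 6 gaps between protein-coding genes, by distance from the left end of the gap (kb) and signal in the final list (log axis); filled points are in the top list of all 3 replicates, orange ones of 2 and open ones of 1. Strong summits lie at the tara end of the first gap and toward both ends of the CG18404 to heca gap. Those between chm and muc are close together and at most 300. Sequence over 10 kb from any start, in the middle of the wide gaps, is outside the class and can show no point. The gaps were chosen for their number of summits or, for the last, their density.

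By nearest gene, hng3 had the most intergenic summits, 9 (8.33 ± 0.577 in the replicates, SD, n = 3). The gene scyl, an inhibitor of TOR signalling, had 7 (7.67 ± 1.15), with signals up to 535 and distances from 4401 to 9401 bp, on both sides. muc and CG44004 also had 7. CG18404, the opsin gene Rh5, CG6168, soti, Ntf-2r and CG12984 had 6 each. For CG12984 the replicates disagreed, with 6, 6 and 2. By contrast, all 6 summits of soti, a gene known from sperm development, were in all 3 top lists, against 67.4% of the 1022. Recovery followed signal, and summits of equal signal were not compared.

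In all, 594 protein-coding genes were nearest to an intergenic summit, 4.26% of 13945, 375 of them to a single one. Only 5241 of the 13945 had any eligible sequence nearest to them, and the others could have no intergenic summit. The percentages of list genes below include such genes, as does the 4.26%. Since genes differ in how much intergenic sequence lies nearest to their starts, each list of genes is described by its count and by its number of summits per Mb of the eligible sequence nearest to it, against 52.2 over all genes. That density was added after the data had been seen, and it rests on few summits in every list.

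Genes of the ecdysone hierarchy had 5 of 20 members nearest to an intergenic summit (25%). Their 8 summits gave 243 per Mb (95% exact Poisson interval 105 to 480) and 254 ± 17.6 in the replicates (SD, n = 3). The median of the 5 genes' highest signals was 266, against 181 over the 594 genes. This was not particular to the list. Cell death and autophagy genes (490) and odorant and gustatory receptor genes (251) were also above 181. Cytochrome P450 (136) and cytosolic ribosomal protein genes (137) were below it. Eip93F, the factor that directs adult differentiation, had 2, the stronger 7520 bp upstream with a signal of 618 and ranks of 287, 534 and 1591. Kr-h1, a repressor of metamorphosis induced by juvenile hormone, had 1 with a signal of 387, 3491 bp upstream, and Eip63E had 1 with 266. The nuclear receptor gene Eip78C had 1 with 177, and Blimp-1, which sets the timing of the prepupal period, had 3 with signals of 100.9 or less. All 8 lay upstream. EcR, usp, br, Hr3, ftz-f1, Eip74EF and Eip75B itself were nearest to none. Only 10 of the 20 genes had any eligible sequence nearest to them, and a gene without it could have no intergenic summit. Summits within 1 kb of a start or inside a gene are not counted here.

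Signalling genes of the Dpp, EGF receptor, Wnt, Hedgehog and Notch pathways had 9 of 32 members nearest to an intergenic summit (28.1%). Of the 32, 15 had eligible sequence. The 18 summits gave 204 per Mb (121 to 323), and the replicates 182 ± 34.1 (SD, n = 3). That interval treats summits as independent, but the 18 lay at 9 genes. The 2 at fz shared rank 2271 in replicate 3. Among ligands, dpp had 1 (signal 293), hh had 4 (up to 272), Ser had 3 (up to 199) and Delta had 1 (135). Among receptors, ptc, which binds Hedgehog, had 3, the strongest 5253 bp upstream with a signal of 544 and the near-identical ranks of 558, 549 and 553, and fz, which binds Wnt, had 2, up to 438. Among intracellular members, the Dpp inhibitor Dad had 1 (299), the Wnt inhibitor nkd had 1 (255) and ci, the Hedgehog pathway's transcription factor, had 2 (up to 105). All 18 were upstream of their gene, against 67.1% of the 1022 intergenic summits. Here too gene length helps to fix the side, and its part was not tested. In all 3 top lists there were 12 of the 18, about the share of all 1022 (67.4%).

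Genes of disc eversion and matrix had 2 of 20 (10%), and 8 of the 20 had eligible sequence. kay, the fly Fos gene, had 5 summits, with a highest signal of 552 at 2651 bp upstream and ranks of 508, 561 and 458, and the matrix protease gene Mmp2 had 1 with 282. All 6 were in all 3 top lists, against 67.4% of the 1022 intergenic summits, without a comparison at equal signal. In the cell death and autophagy list, 10 of 24 genes had eligible sequence. There 2 of 24 were nearest to a summit (8.33%), hid with 3 and its partner in death activation rpr with 1, of signal 193 and 4964 bp upstream. Per Mb, the first list had 143 (52.4 to 311) and the second 68.5 (18.7 to 175), and the second interval holds the value of all genes. The first starts only just above that value of 52.2, and it treats summits as independent. Of its 6 summits, 5 were at kay, and 2 of these (29762426 and 29762627) shared their rank in each replicate (1775, 2875 and 3089). The first list therefore cannot be set apart from all genes by its interval.

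Muscle genes had 4 of 15 (26.7%), with 1 summit each and signals from 169 to 202 at sls, Act87E, Act88F and Act57B, and 157 per Mb (42.7 to 402). Clock genes had 2 of 10, vri with a signal of 443 at 1236 bp and dco, the kinase gene also called doubletime, with at most 110, and 159 per Mb (32.8 to 464). Among nuclear receptor genes outside the hierarchy, 2 of 13 had one, Hr38 (297) and tll (194), and of the ecdysteroid synthesis and uptake genes 2 of 18, the hydroxylase gene shd (137) and phtm (112). Per Mb, these receptor genes had 54.2 and the ecdysteroid genes 68.4. The intervals of the muscle and clock densities reach below the 52.2 of all genes. Eligible sequence lay nearest to 12 of the muscle, 6 of the clock, 9 of the receptor and 6 of the ecdysteroid genes.

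In the remaining lists, no density interval lay above the value of all genes. Eligible sequence lay nearest to 47 of the cuticle protein, 69 of the receptor, 38 of the cytochrome P450 and 33 of the ribosomal protein genes below. Cuticle protein genes had 6 of 70 (8.57%), led by Cpr72Ea (430), Cpr51A (405) and Cpr76Ba (242), and 78.5 summits per Mb (35.9 to 149). Odorant and gustatory receptor genes had 6 of 119 (5.04%), led by the neighbours Gr93d (934), Gr93b (535) and Gr93a (286), and 43.3 per Mb (23.7 to 72.7). Cytochrome P450 genes had 4 of 85 (4.71%), with at most 230, at Cyp4d21, then 155 at Cyp6v1 and 117 at Cyp12d1-d. Hox and cofactor genes had 1 of 10 (hth, 119), immunity genes 1 of 21 (PGRP-SA, 208) and larval fat body genes 1 of 11 (Lsp1gamma, 110). Cytosolic ribosomal protein genes had 2 of 86 (2.33%), RpL17 (163) and RpS23 (112), and 18.5 summits per Mb (2.24 to 66.8). Glue and late puff, neuronal and glutathione S-transferase genes had 0 of 17, 14 and 35, but the eligible sequence nearest to them was short, so the upper ends of the 95% intervals were 3950, 129 and 355 summits per Mb.

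Although outside every protein-coding gene, many intergenic summits lay at non-coding ones. Of the 1022, 128 (12.5%, 95% exact interval 10.6% to 14.7%) lay in a non-coding gene, against 7.43% of the eligible sequence, and the replicates gave 13.7% ± 0.383 (SD, n = 3). Within 1 kb of the start of a non-coding gene there were 190 (18.6%, 16.3% to 21.1%), against 9.49% of the sequence, and 19.3% ± 1.11 in the replicates. Both shares exceeded that of the sequence in 3 of 3 replicates. After lncRNA:Vinr, lncRNA:CR44619 held summits of 1820 and 927, lncRNA:CR45668 upstream of Act5C held one of 1043, lncRNA:CR43334 one of 563 and lncRNA:CR44363 one of 501. lncRNA:CR44833 beside ovo held one of 481, lncRNA:CR44743 one of 443, lncRNA:CR45232 one of 433 and lncRNA:CR44091 one of 432.

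MicroRNA genes were examined after the strongest of these summits had been seen. Of 260 annotated hairpins, 50 had their midpoint in eligible sequence, and 10 of the 260 were the nearest hairpin to an intergenic summit within 2 kb. The summits concerned numbered 17 (1.66%, 95% exact interval 0.972% to 2.65%), against 0.622% of the sequence, and the replicates gave 1.47% ± 0.0540 (SD, n = 3). Besides mir-279, the bantam hairpin mir-ban, whose product promotes growth and limits hid, had a summit 1452 bp away with a signal of 563 and ranks of 590, 559 and 427. mir-282 had 3 summits, the strongest 444, and mir-8 had 1 of 353 at 883 bp.

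mir-14, which in flies acts on the ecdysone receptor gene, had 1 summit of 293, 936 bp away and 18 bp from the start of lncRNA:CR43651. It ranked 1575, 1236 and 2790. mir-275 had 3, up to 240, and mir-375 had 2, up to 142. mir-4985, mir-308 and mir-2c had 1 each, between 103 and 130. These 17 summits are few, some share a gap, and a hairpin's own transcription start is often not annotated.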

How the data were processed

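ChIP-seq regions of Eip75B-GFP in prepupae were analysed from 5 lists on the dm6 build that the authors deposited, 1 per replicate, 1 of the pooled replicates and 1 of optimal peaks after IDR (irreproducible discovery rate, a comparison of ranks between replicates). Per the labels, the first 4 hold peaks and background. Each has 30000 regions, and the optimal list was the 7803 highest-signal regions of the pooled one. The signal of a region is the peak caller's value as the authors deposited it. Not given in the sources used here are the aligner, the peak caller, the threshold of IDR and the number of reads, so depth is unknown and intervals cover counting error only.

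Summits are the deposited start plus the deposited offset, printed 1-based. Ensembl release 115 (FlyBase 6.54) supplied gene models, with 13945 protein-coding genes on 6 arms and 4219 other genes, transposons left out. Sequence came from the RefSeq Release 6 assembly, and none is shown from arm 2R. A replicate's rank for a summit is that of its highest-signal region holding it, so neighbouring summits can share one. Flanking windows had the width of the summit window. Shares have exact Clopper-Pearson and densities exact Poisson intervals (95%). Differences were computed within each replicate and tested by exact sign-flip permutation, two-sided, with Benjamini-Hochberg adjustment over 8 differences. Replicates are those the labels call biological.

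The 18 gene lists, the motifs and the class itself were chosen with earlier results of these data known, and no list was tested. Listed symbols of 3 genes were matched through synonyms (ptth, debcl and dbt, the last as dco). Named genes are those nearest to the 25 strongest summits, the 10 nearest to the most summits, up to 3 of each list by signal, and the non-coding genes holding the 10 strongest summits in such genes; gaps, microRNAs, further list members and genes at the bounds were named after their values were seen. Alternatives were other distance bounds and gene models, merged regions, the upper 50% of summits by signal, all pooled regions, leaving out each replicate and, added after the data were seen, leaving out repeat-masked summits or X. Scripts were checked on simulated summits. Python 3.11.15, numpy 2.4.6, pandas 2.3.3, SciPy 1.17.1 and matplotlib 3.10.9 were used.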

Additional observations from a re-analysis of the deposited data

How the results depend on the processing

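Of 124 recomputed values, all but 9 kept their direction and side. The number of intergenic summits was 654 with an outer bound of 5 kb, 501 in the upper 50% by signal and 4928 with all pooled regions, and 733 to 789 when each replicate was left out, which keeps summits found in both others. The log2 density ratio turned to -0.0103 with an inner bound of 2 kb and to -0.0573 with all annotated genes. The difference in median signal percentile became 0.00641 points with an outer bound of 20 kb. The difference in recovery became -3.16 points in the upper 50% by signal, -2.52 with all pooled regions and ranged from -0.28 to 3.63 without each replicate. The causes were not tested. The upstream excess (2.59 to 5.60 points), the E75/Hr3 excess over the flank (0.103 to 0.489), the G + C difference (-14.2 to -7.18) and its difference from intragenic summits (-3.59 to -1.68) kept their sign under every alternative run. In the final list, so did the E75/Hr3 difference from intragenic summits (-0.53 to -0.0841), but its replicate mean was 0.229 with an outer bound of 5 kb, 0.0963 in the upper 50% by signal and between -0.27 and 0.113 under the other alternatives. No paired analysis was possible because the labels give 1 group, so no other group shares its replicate numbers. Kinds of sequence were compared within each replicate. With 3 replicates the smallest exact p is 0.25, and 0.5 without 1 of them. Depth is unknown, so the absence of a summit from a list is no sign that binding is absent.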
